A study of Mus musculus and Rattus norvegicus with 6 samples.

Results

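The nitric oxide and cGMP pathway was followed through 10 genes chosen by their symbols in the count table of 55573 genes. They are the nitric oxide synthases Nos1, Nos2 and Nos3, the subunits of soluble guanylate cyclase Gucy1a1, Gucy1a2 and Gucy1b1, the cGMP-dependent kinase Prkg1, the phosphodiesterases Pde5a and Pde3a, and Ddah1, which clears a natural inhibitor of the synthases. RNA was sequenced in bulk from 2 libraries of wild-type mouse smooth muscle cells (SMCs) given a control siRNA (siCo) and from 2 libraries of the same cells given siRNAs against YAP and TAZ (siYAP/TAZ). The sample labels name the cells as MOVAS, a single mouse aortic smooth muscle line, whereas the study's legends speak of primary penile SMCs, and the sources used here do not settle which of them was sequenced. Nor do they say if each library was grown as its own culture, and p-values therefore measure a spread among libraries that may be technical only. The study's supplement lists 2 siRNA mixes against YAP and TAZ, and which mix each siYAP/TAZ library received is not given.

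Nitric oxide is made from arginine by the synthases and binds the heme of soluble guanylate cyclase, a dimer of an alpha and a beta subunit that then makes cGMP. In smooth muscle cGMP activates its kinase, which lowers cytosolic calcium and relaxes the cell, and phosphodiesterases end the signal. Penile erection depends on this relaxation, and PDE5, the product of Pde5a, is the target of sildenafil. In blood vessels NOS3 is chiefly an endothelial enzyme, NOS1 a neuronal one and NOS2 an enzyme induced by cytokines, while the cyclase, the kinase and PDE5 act in the muscle cell.

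Levels are given as FPKM, the count scaled by exonic length and by the total of the library, and libraries held 17192309 to 18751368 counts. Changes are log2 fold changes of siYAP/TAZ against siCo with their standard error (SE) and a p from the quasi-likelihood test of edgeR, adjusted over the 15479 genes that passed its filter on low counts, and a gene is said to have risen or fallen where that p is under 0.05. Yap1 fell from a mean of 22.7 to 1.95 FPKM, and Wwtr1, which encodes TAZ, fell from 57.8 to 17.2 FPKM. The smooth muscle label was met in part. In siCo, Acta2 stood at 140.2 FPKM, Tagln at 35.5 FPKM and Smtn at 25.3 FPKM. Lower in the smooth muscle list were Lmod1 (3.52 FPKM), Cnn1 (2.15), Myh11, the smooth muscle myosin (1.29), Des (1.18) and Myocd (0.132). The endothelial genes Cdh5, Emcn, Esam, Pecam1 and Tie1 stood at 42.2, 22.3, 16.3, 12.9 and 8.08 FPKM. Kdr, Tek, Cldn5 and Vwf of the endothelial list stood at 4.34, 1.81, 1.08 and 0.285 FPKM.

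After the knockdown the synthases Nos2 and Nos3 rose more than 3.2-fold in mean FPKM, whereas the cyclase subunit Gucy1a2 and the inhibitor-clearing enzyme Ddah1 fell. Changes of the kinase and of both phosphodiesterases were smaller, and each of those calls was lost without 1 library or more. Of the 10 genes, 8 passed the filter and 2, Nos1 and Gucy1a1, did not. Of these 8 genes, 4 rose (Nos2, Nos3, Prkg1 and Pde5a), 3 fell (Gucy1a2, Pde3a and Ddah1) and 1 did not pass the threshold (Gucy1b1). The knockdown moved much of the transcriptome, with 27.6% of all tested genes higher and 27.7% lower, 55.4% in either direction. With 8 genes, the 4 that rose and the 3 that fell cannot be set apart from that background by their number. Their median log2 fold change was 0.36, beside 0.00 over all tested genes. That median lies between the values of Pde5a (0.28) and Gucy1b1 (0.43), and a shift of the 8 genes as a set was not tested.

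**Figure D1:**
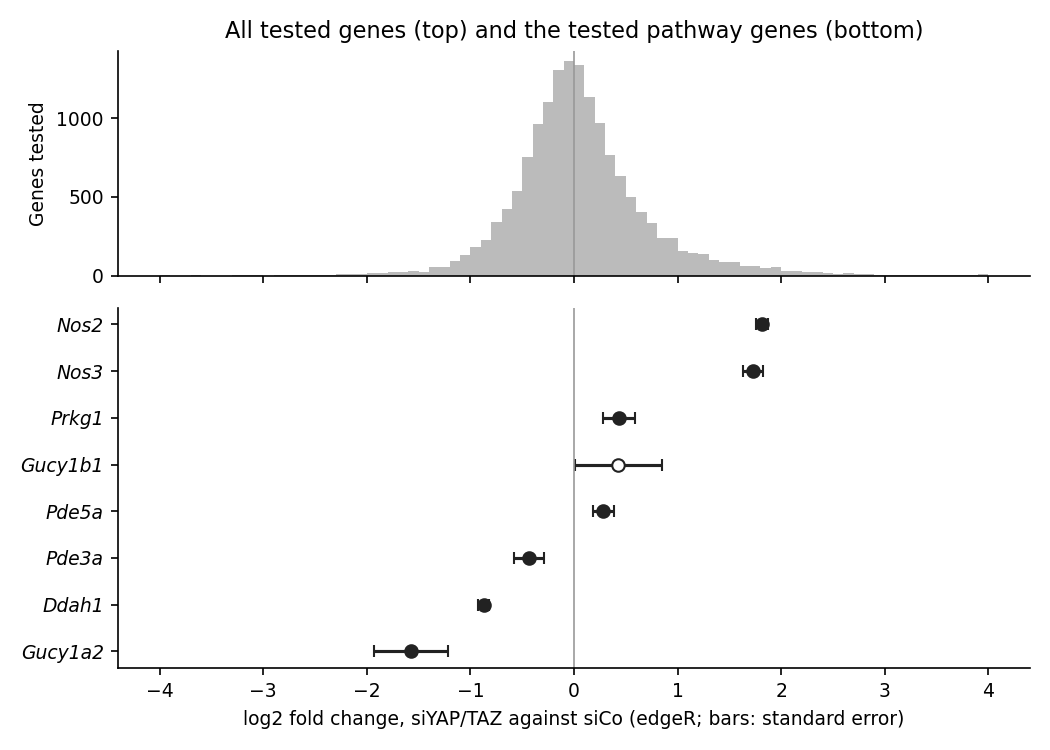
Log2 fold change of siYAP/TAZ against siCo for all 15479 tested genes (top, a histogram in which the end bins also hold values beyond the axis) and for the 8 tested genes of the pathway (bottom, points with SE bars, the open point marking the gene that missed the threshold). Nos2 and Nos3 lie far to the right and Gucy1a2 and Ddah1 to the left, and the other 4 lie nearer to 0.

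Nos2, the inducible synthase, was measured at 15.4 and 13.5 FPKM in the siCo libraries and at 49.7 and 49.0 FPKM in the siYAP/TAZ libraries (counts of 1255, 1075, 4112 and 3716). Both knockdown libraries were far above both controls and lay within a narrow range. The mean rose 3.41-fold, from 14.5 ± 1.37 to 49.4 ± 0.504 FPKM (SD, n = 2 each), a log2 fold change of 1.81 (SE 0.0552, adjusted p = 1.27e-16 from edgeR). Of all tested genes, 2.73% changed by more in either direction. The gene lies on the plus strand of chromosome 11, from 78920787 to 78960254 in mm10. In siCo it stood above 84.9% of the genes with a count in the table, and in siYAP/TAZ above 96.0%.

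Nos3, the synthase best known from endothelium, was measured at 2.69 and 2.73 FPKM in siCo and at 9.06 and 8.33 FPKM in siYAP/TAZ (counts of 205, 203, 702 and 592). The groups did not overlap, and the gap between them was many times the spread within either. Its mean rose 3.21-fold, from 2.71 ± 0.0215 to 8.70 ± 0.514 FPKM (SD, n = 2 each), a log2 fold change of 1.73 (SE 0.0946, adjusted p = 1.53e-12 from edgeR). Nos3 lies on the plus strand of chromosome 5, from 24364810 to 24384474. Of its exonic bases, 1040 (25.2%) are also exonic in the antisense transcript Gm15587 and 294 (7.12%) in Atg9b, an autophagy gene on the other strand. Whether counting used the strand is not known from the sources at hand, so reads from the shared bases cannot be assigned to one gene. Gm15587 held 4, 5, 13 and 17 counts, few beside those of Nos3, and rose by a log2 fold change close to that of Nos3, 1.77 (SE 0.570, adjusted p = 0.0116 from edgeR). That call was lost in DESeq2 (adjusted p = 0.0957) and without siCo replicate 1 (adjusted p = 0.0963), siCo replicate 2 (adjusted p = 0.0560) or siYAP/TAZ replicate 2 (adjusted p = 0.162). Atg9b held 94, 99, 106 and 95 counts and did not pass the threshold (log2 fold change 0.12, adjusted p = 0.585).

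Endothelial genes are given beside Nos3 because that gene marks endothelium. All 9 genes of the endothelial list were tested, 5 rose and 2 fell, beside 27.6% higher and 27.7% lower over all tested genes. Their summed level was 108.1 to 110.3 FPKM in siCo and 117.1 to 123.7 FPKM in siYAP/TAZ. Tie1, an endothelial receptor kinase, rose from 8.08 to 15.2 FPKM (log2 fold change 0.96, SE 0.0667). Tek rose from 1.81 to 4.85 FPKM (log2 fold change 1.46, SE 0.139) and Cldn5 from 1.08 to 2.78 FPKM (1.40, SE 0.272). Pecam1 (0.32) and Cdh5 (0.12) rose by less. The call of Cdh5 was lost in DESeq2 (adjusted p = 0.108), in limma on log2(FPKM + 1) and log2(FPKM + 0.1) and under scaling by library totals. It was also lost without siCo replicate 2 or siYAP/TAZ replicate 2. Emcn, an endothelial sialomucin, fell from 22.3 to 16.3 FPKM (log2 fold change -0.41, SE 0.0559), and Kdr fell by less (-0.22). The macrophage list, given beside Nos2, had 2 of its 8 genes tested. Its defining genes Adgre1, Tyrobp, C1qa, C1qb and C1qc had no count in any library, and Ptprc held 2 counts, both in siCo. Cd68 rose (log2 fold change 0.63, SE 0.131), while Csf1r missed the threshold (log2 fold change 0.41, SE 0.354). The summed level was 8.22 to 8.56 FPKM in siCo and 11.1 to 14.1 FPKM in siYAP/TAZ. Nearly all of that sum was Cd68, at 7.86 and 8.38 FPKM in siCo and 10.8 and 13.7 FPKM in siYAP/TAZ. The part of these lists in the rise of both synthases was not tested. In bulk RNA a change in the share of cells of a type and a change in RNA per cell cannot be told apart.

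Nos1, the neuronal synthase, was close to absent. It held 2 and 3 counts in siCo and 2 and 2 in siYAP/TAZ, or 0.00957 to 0.0149 FPKM. The ratio of summed counts per total was 0.811 (95% exact Poisson interval 0.161 to 3.77, counting error only), so no difference was detectable at this depth. Nos1 lies on the plus strand of chromosome 5, from 117781032 to 117958840.

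Although Nos2 and Nos3 both rose, the division of synthase RNA between the genes stayed within a small range. Per kilobase, Nos2 made up 85.1 and 83.1% of the summed synthase level in siCo and 84.6 and 85.4% in siYAP/TAZ, and Nos3 14.8 and 16.8% in siCo and 15.4 and 14.5% in siYAP/TAZ. The log2 ratio of Nos3 to Nos2 within a library differed by -0.09 between the groups (95% least-squares interval -0.59 to 0.41, exact two-sided permutation p = 0.667). This pair was chosen after its values were seen, and with 2 libraries a group no permutation test can give a p under 0.333.

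**Figure D2:**
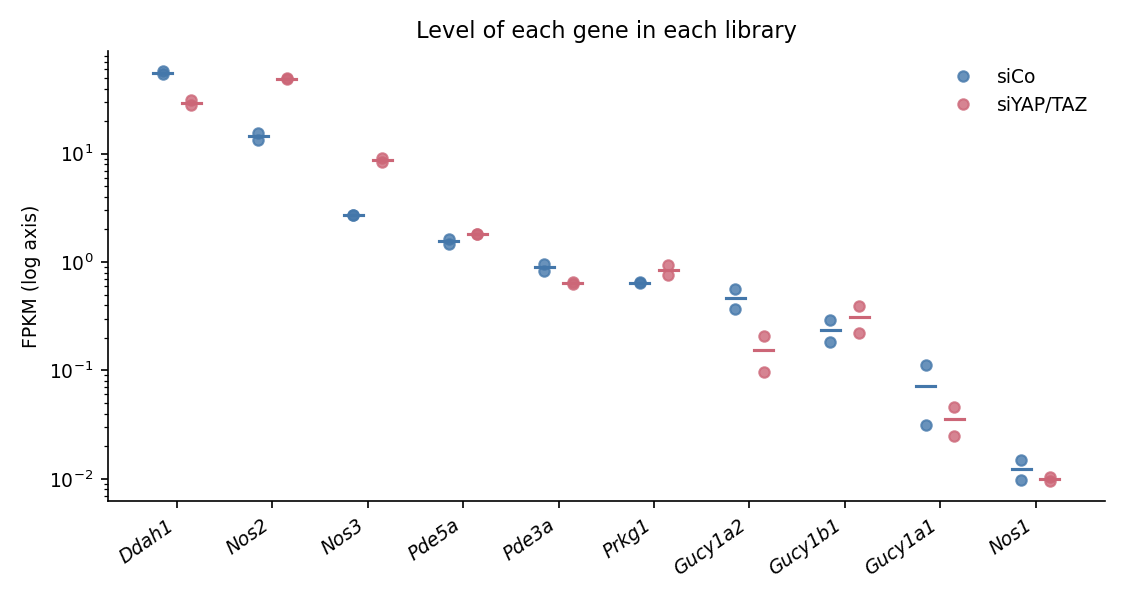
Level of each of the 10 genes in each library in FPKM on a log axis, siCo in blue and siYAP/TAZ in red, with dots for libraries and short bars for group means. Nos2 and Nos3 stand higher in both siYAP/TAZ libraries and Ddah1 and Gucy1a2 lower, while the libraries of Gucy1b1 and Gucy1a1 overlap between groups.

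Ddah1 hydrolyses asymmetric dimethylarginine, a methylated arginine that competes with arginine at the synthases. It was the most abundant of the 10 genes in siCo, at 53.9 and 57.7 FPKM, and stood at 28.1 and 31.1 FPKM in siYAP/TAZ (counts of 3951, 4147, 2102 and 2132). Each knockdown library was far below each control. The mean fell 1.88-fold, from 55.8 ± 2.74 to 29.6 ± 2.11 FPKM (SD, n = 2 each), a log2 fold change of -0.87 (SE 0.0529, adjusted p = 8.75e-12 from edgeR), and 14.7% of tested genes changed by more. Ddah1 lies on the plus strand of chromosome 3, from 145758675 to 145894277.

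Its paralogue Ddah2 stood at 17.2 and 15.3 FPKM in siCo and at 15.6 and 14.6 FPKM in siYAP/TAZ, and missed the threshold (log2 fold change -0.06, SE 0.0889, adjusted p = 0.599). As a share of both paralogues per kilobase, Ddah1 went from 75.9 and 79.0% in siCo to 64.4 and 68.0% in siYAP/TAZ. The log2 ratio of Ddah1 to Ddah2 within a library differed by -0.81 between siYAP/TAZ and siCo (95% least-squares interval -1.57 to -0.05, exact two-sided permutation p = 0.333, adjusted over 7 pairs 0.777). The libraries of the groups did not overlap in this ratio, and 0.333 is the smallest p that the design allows.

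The subunits of soluble guanylate cyclase were scarce in these cells, all under 0.6 FPKM in every library. Gucy1a2, an alpha subunit, was measured at 0.367 and 0.567 FPKM in siCo and at 0.0962 and 0.210 FPKM in siYAP/TAZ (counts of 45, 68, 12 and 24). Libraries of a group differed, but both knockdown libraries were below both controls. The mean was 3.05-fold lower, 0.467 ± 0.141 against 0.153 ± 0.0804 FPKM (SD, n = 2 each), a log2 fold change of -1.58 (SE 0.356, adjusted p = 0.000724 from edgeR). Without siYAP/TAZ replicate 2 it was -2.21, and without siYAP/TAZ replicate 1 it was -1.10, both past the threshold. Gucy1a2 lies on the plus strand of chromosome 9, from 3532778 to 3894736.

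Gucy1b1 encodes the beta subunit, which carries the heme that binds nitric oxide. It was measured at 0.290 and 0.184 FPKM in siCo and at 0.394 and 0.222 FPKM in siYAP/TAZ (counts of 21, 13, 29 and 15). The groups overlapped, and the log2 fold change of 0.43 (SE 0.421, adjusted p = 0.408 from edgeR) was close to its SE. It was -0.05 without siYAP/TAZ replicate 1.

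Gucy1a1, the other alpha subunit, held 4 and 14 counts in siCo and 6 and 3 in siYAP/TAZ, or 0.0312, 0.111, 0.0459 and 0.0250 FPKM. It failed the filter and was not tested. The ratio of summed counts per total was 0.507 (95% exact Poisson interval 0.201 to 1.19, counting error only), and siCo replicate 2 alone held 14 of the counts. Gucy1b1 and Gucy1a1 are neighbours on the minus strand of chromosome 3, at 82032006 to 82074689 and 82092427 to 82145789, with a gap of 17737 bases and no annotated gene between them.

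The alpha subunits therefore had to be compared at low counts. Per kilobase, Gucy1a2 made up 92.2 and 83.6% of both alpha subunits in siCo and 67.7 and 89.3% in siYAP/TAZ, so the groups overlapped. The log2 ratio of Gucy1a2 to Gucy1b1 within a library was 0.32 and 1.58 in siCo and -1.999 and -0.10 in siYAP/TAZ, with groups that did not overlap. The difference of -2.001 had a wide 95% least-squares interval, -6.91 to 2.90 (exact two-sided permutation p = 0.333, adjusted 0.777). The ratios of Gucy1a1 to Gucy1b1 and of Gucy1a2 to Gucy1a1 differed by -1.09 (interval -6.16 to 3.99) and -0.91 (interval -5.57 to 3.74), which leaves both directions possible.

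**Figure D3:**
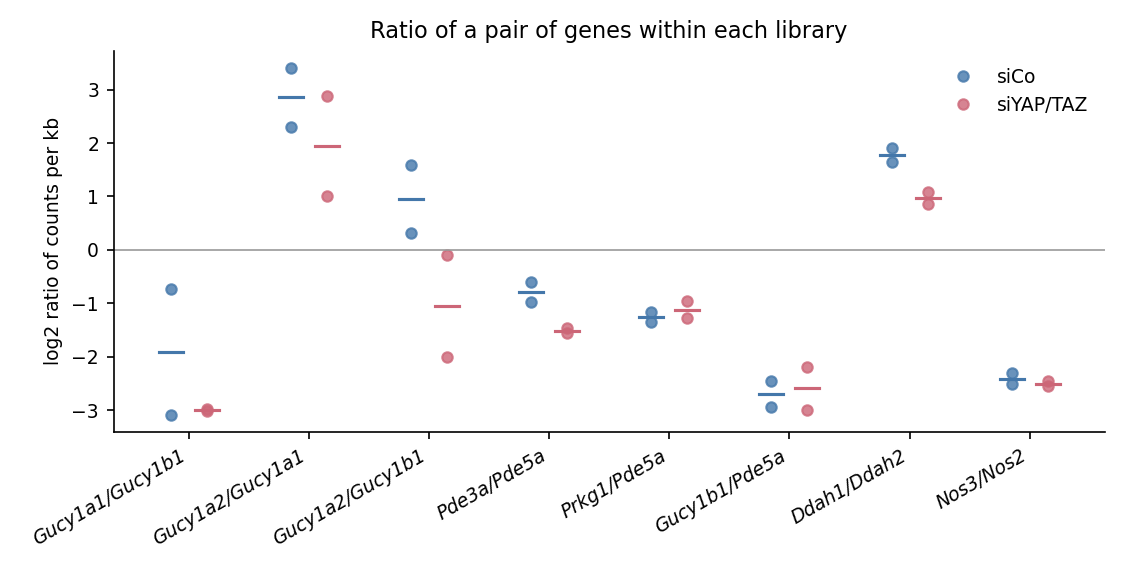
Log2 ratio of counts per kilobase for 8 pairs of genes in each library, siCo in blue and siYAP/TAZ in red, with dots for libraries and short bars for group means. For Gucy1a2/Gucy1b1, Pde3a/Pde5a and Ddah1/Ddah2 both siYAP/TAZ libraries lie below both siCo libraries, and the Gucy1a1/Gucy1b1 libraries overlap.

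The cGMP-dependent kinase Prkg1, which carries the signal to the calcium stores and the contractile apparatus, was measured at 0.640 and 0.654 FPKM in siCo and at 0.938 and 0.755 FPKM in siYAP/TAZ (counts of 128, 128, 191 and 141). Both knockdown libraries were above the controls, replicate 1 more so. The mean rose from 0.647 ± 0.00962 to 0.846 ± 0.129 FPKM (SD, n = 2 each), a log2 fold change of 0.44 (SE 0.154, adjusted p = 0.0210 from edgeR). Without siYAP/TAZ replicate 1 it was 0.27 (adjusted p = 0.294), and DESeq2 gave an adjusted p of 0.120. Prkg1 lies on the minus strand of chromosome 19, from 30564489 to 31765033.

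The paralogue Prkg2, a membrane-bound cGMP kinase known from gut and cartilage, was far more abundant, with means of 24.0 FPKM in siCo and 28.5 FPKM in siYAP/TAZ. It rose by a log2 fold change of 0.29 (SE 0.0497, adjusted p = 3.45e-05 from edgeR). Prkg2 is named because its level stood out beside that of Prkg1.

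Pde5a encodes PDE5, which breaks down cGMP alone. It was measured at 1.63 and 1.47 FPKM in siCo and at 1.83 and 1.82 FPKM in siYAP/TAZ (counts of 295, 260, 338 and 308). The groups did not overlap but lay close, and siCo replicate 1 was nearest to the knockdown libraries. The mean was 1.18-fold higher, 1.55 ± 0.115 against 1.83 ± 0.00794 FPKM (SD, n = 2 each), a log2 fold change of 0.28 (SE 0.105, adjusted p = 0.0267 from edgeR). Of all tested genes, 55.4% changed by more in either direction. The call was lost without siCo replicate 2 (log2 fold change 0.21, adjusted p = 0.166), without siYAP/TAZ replicate 1 (adjusted p = 0.0806), without siYAP/TAZ replicate 2 (adjusted p = 0.0757) and in DESeq2 (adjusted p = 0.148). Pde5a lies on the plus strand of chromosome 3, from 122728947 to 122859374.

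Pde3a encodes a phosphodiesterase that binds both nucleotides and whose breakdown of cAMP is slowed by cGMP, so that cGMP can raise cAMP through it. It was measured at 0.823 and 0.962 FPKM in siCo and at 0.624 and 0.658 FPKM in siYAP/TAZ (counts of 193, 221, 149 and 144). Both knockdown libraries were below both controls, and the controls lay farther apart than the knockdown libraries did. The mean fell from 0.893 ± 0.0986 to 0.641 ± 0.0239 FPKM (SD, n = 2 each), a log2 fold change of -0.43 (SE 0.141, adjusted p = 0.0124 from edgeR). The call was lost without siCo replicate 2 (log2 fold change -0.31, adjusted p = 0.108), without siYAP/TAZ replicate 1 (log2 fold change -0.39, adjusted p = 0.0674) and in DESeq2 (adjusted p = 0.0831). Pde3a lies on the plus strand of chromosome 6, from 141249269 to 141507448, and shares 5.82% of its exonic bases with the antisense transcript Gm28523, which held 5 to 15 counts.

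Set against each other, the log2 ratio of Pde3a to Pde5a within a library differed by -0.71 between siYAP/TAZ and siCo (95% least-squares interval -1.54 to 0.12, exact two-sided permutation p = 0.333, adjusted 0.777), with groups that did not overlap. The ratio of Prkg1 to Pde5a differed by 0.14 (interval -0.62 to 0.90) and that of Gucy1b1 to Pde5a by 0.11 (interval -1.90 to 2.12). Neither difference can be told from 0 with these libraries.

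Ranked by mean FPKM, the genes in siCo ran Ddah1, Nos2, Nos3, Pde5a, Pde3a, Prkg1, Gucy1a2, Gucy1b1, Gucy1a1 and Nos1, and no neighbours in that order overlapped in their libraries. In siYAP/TAZ the order had 3 exchanges, Nos2 above Ddah1, Prkg1 above Pde3a and Gucy1b1 above Gucy1a2, again with no overlap between neighbours. Ddah1, Nos2 and Nos3 held the top of the order in both groups, and Nos1 the bottom, below the 3 cyclase subunits.

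Of the rest of the pathway, 92 genes are in the table and 68 were tested. Of these, 24 rose and 19 fell, and 25 did not pass, with a median log2 fold change of 0.07. These counts, and those of each group below, are read beside the 27.6% higher and 27.7% lower over all tested genes. No group was tested against that background.

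The supply of nitric oxide was the first group, with 14 genes of arginine handling and of the synthase cofactor tetrahydrobiopterin tested, 5 higher and 4 lower. Ass1, which remakes arginine from citrulline, rose from 24.9 to 44.0 FPKM (log2 fold change 0.87, SE 0.0635), and Pts, an enzyme of tetrahydrobiopterin synthesis, rose from 1.76 to 2.60 FPKM (log2 fold change 0.60, SE 0.123). Slc7a1, a cationic amino acid transporter that brings arginine into the cell, fell from 13.6 to 6.21 FPKM (log2 fold change -1.08, SE 0.0515). Slc7a2, another such transporter, rose from 12.4 to 16.1 FPKM (log2 fold change 0.42, SE 0.0499).

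Among 11 tested partners of the synthases, 2 rose and 4 fell. Calm3, a calmodulin gene, rose (log2 fold change 0.34, SE 0.0416), as did Nosip, a NOS3-binding protein (log2 fold change 0.20, SE 0.0588). Nosip missed the threshold without siCo replicate 2 (log2 fold change 0.15) or siYAP/TAZ replicate 1 (0.18). It also missed it with limma on log2(FPKM + 1) (adjusted p = 0.0541) and on log2(FPKM + 0.1) (adjusted p = 0.0533). Hsp90aa1, a chaperone that binds NOS3, fell (log2 fold change -0.64, SE 0.0410). Cav1, the caveolar protein that holds NOS3 inactive, fell from 134.5 to 102.7 FPKM (log2 fold change -0.34, SE 0.0426).

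Of 5 tested genes that remove nitric oxide or keep heme reduced, 2 rose and 2 fell. Cytoglobin, Cygb, which can oxidise nitric oxide, held 18, 13, 79 and 47 counts and rose from 0.364 to 1.49 FPKM (log2 fold change 2.07, SE 0.333). Cyb5r3, which reduces oxidised heme, rose as well (log2 fold change 0.50, SE 0.0399). Txnrd1, which keeps thioredoxin reduced, and Adh5, which breaks down S-nitrosoglutathione, fell (log2 fold changes -1.14 and -0.57).

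Of 7 genes in the list of other cyclases, 3 were tested, all of them membrane receptors of natriuretic peptides. Npr1 and Npr2 make cGMP without nitric oxide. Npr1 rose from 1.71 to 3.50 FPKM (log2 fold change 1.07, SE 0.127) and Npr2 from 19.5 to 24.1 FPKM (log2 fold change 0.35, SE 0.0492). Npr3, which has no cyclase domain and clears the peptides, fell from 1.51 to 0.453 FPKM (log2 fold change -1.70, SE 0.158). The other 4 genes of the list, Gucy1b2, Gucy2c, Gucy2e and Gucy2f, failed the filter.

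Of 15 other tested phosphodiesterase genes, 7 rose and 3 fell, beside 27.6% higher and 27.7% lower over all tested genes. Pde1b, a calcium-activated enzyme that breaks down both nucleotides, rose from 3.70 to 11.3 FPKM (log2 fold change 1.66, SE 0.0791). Pde11a rose from 7 and 0 counts in siCo to 34 and 19 in siYAP/TAZ (log2 fold change 2.94, SE 0.644, or 1.98 without siCo replicate 2), and DESeq2 did not call it (adjusted p = 0.195). Without siCo replicate 1 the only control left is at 0 counts, and the fitted value of 7.75 is then no measure of its size. Pde4d, an enzyme of cAMP, fell from 1.67 to 0.656 FPKM (log2 fold change -1.30, SE 0.121). Pde3b, the paralogue of Pde3a, fell by 0.45 on the log2 scale (SE 0.122). It missed the threshold without siYAP/TAZ replicate 2 (log2 fold change -0.28) and with limma on log2(FPKM + 0.1) (adjusted p = 0.0545).

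In a split made after the values were seen, the 13 catalytic phosphodiesterases of cGMP or of both nucleotides, Pde5a and Pde3a among them, summed to 12.2 and 11.6 FPKM in siCo and to 20.98 and 19.98 FPKM in siYAP/TAZ. Those of cAMP alone summed to 21.9 and 21.7 FPKM in siCo and to 22.0 and 22.4 FPKM in siYAP/TAZ. As a share of the first sum, Pde5a went from 13.3 and 12.6% to 8.74 and 9.12%, and Pde3a from 6.73 and 8.27% to 2.97 and 3.29%. Most of the rise of that sum was Pde1b. Without it the sum was 8.83 and 7.65 FPKM in siCo and 9.62 and 8.76 FPKM in siYAP/TAZ, with groups that overlapped. The share of Pde5a was then 18.5 and 19.2% in siCo and 19.1 and 20.8% in siYAP/TAZ, so its lower share rested on Pde1b, whereas that of Pde3a was still lower, 9.32 and 12.6% against 6.48 and 7.504%.

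Downstream of cGMP, 17 substrates and effectors of the kinase, Prkg2 included, were tested, 5 rose and 5 fell. Trpc6, a cation channel that the kinase inhibits, rose from 0.941 to 2.27 FPKM (log2 fold change 1.31, SE 0.158), and Hspb6, a small heat shock protein phosphorylated during relaxation, rose from 21.3 to 37.3 FPKM (log2 fold change 0.85, SE 0.0585). Itpr1, the calcium release channel of the stores, fell (log2 fold change -0.41, SE 0.0682), as did Ppp1r12b, a targeting subunit of myosin phosphatase (log2 fold change -0.25, SE 0.0630), which missed the threshold without siYAP/TAZ replicate 2 (adjusted p = 0.0766). Of 3 tested genes of cGMP export and cyclic nucleotide channels, only the exporter Abcc5 passed the threshold, higher by 0.20 on the log2 scale (SE 0.0547). Abcc5 missed it without siYAP/TAZ replicate 1 (log2 fold change 0.16). It also missed it with limma on log2(FPKM + 1) (adjusted p = 0.114) and on log2(FPKM + 0.1) (adjusted p = 0.108).

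**Figure D4:**
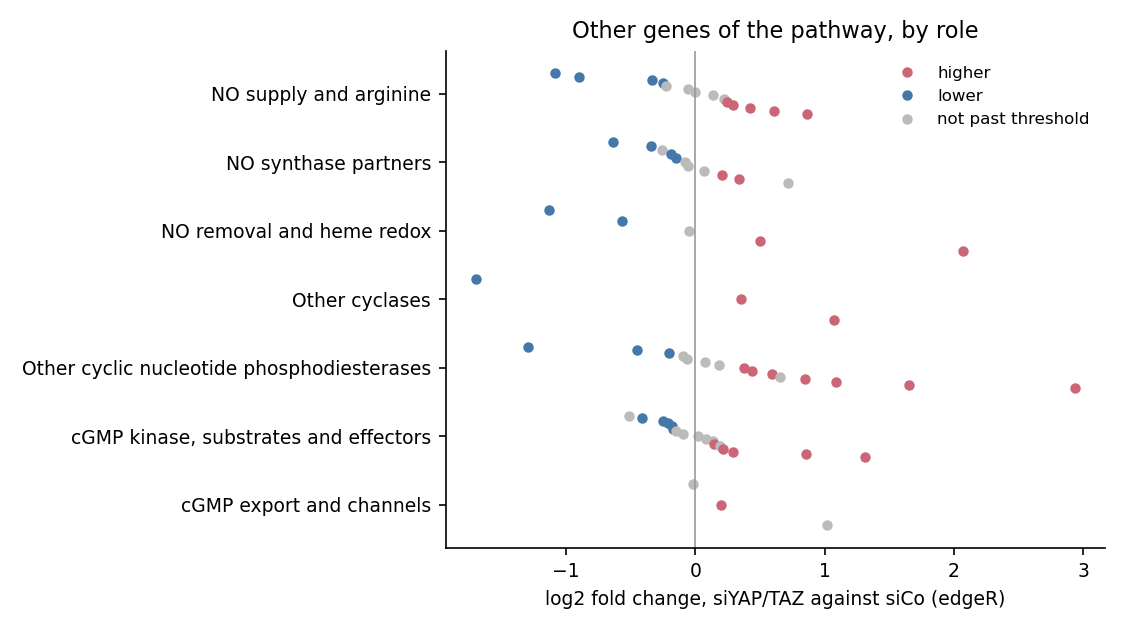
Log2 fold change of siYAP/TAZ against siCo for the 68 tested other genes of the pathway, 1 point a gene, grouped by role, with genes that rose in red, genes that fell in blue and genes not past the threshold in grey. Rises and falls occur together in 6 of the 7 groups, with Pde11a and Cygb farthest to the right and Npr3 farthest to the left.

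Smooth muscle and pericyte genes are given for the whole lists. All 8 smooth muscle genes were tested, 5 fell and 1 rose, while Smtn and Myocd missed the threshold. The call of Myh11 (log2 fold change -0.38) was lost in DESeq2 (adjusted p = 0.167) and without siCo replicate 2 or siYAP/TAZ replicate 2. It was also lost with limma on log2(FPKM + 1) (adjusted p = 0.0743) and on log2(FPKM + 0.1) (adjusted p = 0.0965). The summed level of the 8 genes was 207.1 to 211.3 FPKM in siCo and 102.5 to 107.1 FPKM in siYAP/TAZ. Acta2 made up most of that sum, with means of 140.2 FPKM in siCo and 67.4 FPKM in siYAP/TAZ. All 6 pericyte genes were tested and 4 rose, while Abcc9 and Kcnj8 missed the threshold. Their sum was 34.8 to 40.1 FPKM in siCo and 70.1 to 71.7 FPKM in siYAP/TAZ. Most of that rise was Rgs5, from a mean of 3.23 to 19.8 FPKM, and Pdgfrb, from 22.7 to 34.4 FPKM. Of 6 neuronal genes, given beside Nos1, 4 were tested, 2 rose and 1 fell, with sums of 1.22 to 1.65 FPKM in siCo and 2.26 to 2.72 FPKM in siYAP/TAZ. The called counts of these lists are read beside the 27.6% higher and 27.7% lower over all tested genes. The part of these lists in the levels of the pathway genes was not tested.

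YAP and TAZ do not bind DNA themselves and reach it chiefly through TEAD factors, often beside AP-1, so the starts of the genes were searched for the letters of those sites. RefSeq windows of 250 bases before to 50 bases after the start (GRCm38.p6) were at hand for 7 of the 10 genes, in 9 windows. The TEAD core GGAATG, the AP-1 site TGANTCA and the CArG box of serum response factor, each on both strands, were found in 0 of the 9 windows, beside 14.7%, 7.81% and 1.63% of all 32851 windows. That says only that these letters are not in these windows. The 250 bases before the RefSeq start are shown, 5′ to 3′, for the 2 genes that fell past the threshold under every alternative run, Ddah1 at chr3:145758442-145758691 (plus strand, 64.0% G or C) and Gucy1a2 at chr9:3532099-3532348 (plus strand, 59.6% G or C). They are in lower case throughout because no motif was matched, and their RefSeq starts differ from the gene starts given above.
Ddah1: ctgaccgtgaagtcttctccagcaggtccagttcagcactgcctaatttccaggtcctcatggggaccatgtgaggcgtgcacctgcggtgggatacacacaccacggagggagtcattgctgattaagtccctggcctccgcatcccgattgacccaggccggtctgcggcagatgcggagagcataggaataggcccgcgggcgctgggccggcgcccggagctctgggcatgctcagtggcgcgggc
Gucy1a2: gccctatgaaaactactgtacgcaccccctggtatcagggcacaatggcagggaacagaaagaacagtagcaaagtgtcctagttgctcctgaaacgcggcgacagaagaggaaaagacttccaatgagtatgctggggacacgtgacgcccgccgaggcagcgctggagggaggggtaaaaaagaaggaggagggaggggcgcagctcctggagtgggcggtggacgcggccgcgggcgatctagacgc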

How the data were processed

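Bulk RNA-seq of 2 siCo and 2 siYAP/TAZ libraries was used, and the rat single-nucleus samples were not analysed here. The table that the authors deposited pairs raw counts with FPKM for each gene. Per the labels, reads were processed with Trimmomatic and HISAT2 on mm10, and the methods name featureCounts on uniquely mapped reads for tissue. The sources at hand do not state the strand setting. The deposited FPKM is the count divided by exonic length and library total, a rule that returned the deposited siCo values of all 55573 genes (tolerance 0.005), so FPKM was recomputed for all libraries. The 2 siYAP/TAZ FPKM columns were not used because they could not be matched to single samples. The siYAP/TAZ count columns name the group and not the sample, and their replicate numbers follow table order only. Of the rows, 57 name no gene and hold 0 counts. Libraries held 17192309 to 18751368 counts, with 28498 genes at 0 in all 4. Of the gene identifiers, 99.83% are in GENCODE M21, from which coordinates and overlaps were taken, and all 10 genes had the same coordinates there.

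Counts were fitted with edgeR 4.0.16 under R 4.3.3 (quasi-likelihood test, TMM scaling, filterByExpr at a minimum count of 10, Benjamini-Hochberg adjustment, threshold 0.05). The dispersion rested mostly on the trend over genes (18.6 prior and 2 residual degrees of freedom). Ratios of genes within a library were compared by an exact two-sided permutation test. Replicate libraries were not duplicates of each other (chi-square per gene of 3.34 in siCo and 2.00 in siYAP/TAZ). On simulated data with 200 changed genes, 89% of log2 changes of 1 and 98% of log2 changes of 2 were called by edgeR, and false calls made up 6.12%. The simulation gave every gene the same dispersion and changed 200 of 15226 genes, whereas 55.4% of tested genes were called in the real data. Its rates are therefore not those of the real calls, least of all for genes with few counts. The 10 genes and the lists were chosen with earlier results of these data known. From each list of other pathway genes, the 2 highest and 2 lowest log2 fold changes past the threshold are named, and other genes named were chosen after their values were seen. The result of 1 gene that this rule would name is not reported here. Alternatives were DESeq2 1.42.0, other scalings and filters, edgeR's robust option, limma 3.58.1 on log2(FPKM + 1) and log2(FPKM + 0.1), leaving out each library and a replicate block. Tables were made with pandas 2.3.3 and scipy 1.17.1 in Python 3.11.15, and figures with matplotlib 3.10.9.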

Additional observations from a re-analysis of the deposited data

How the results depend on the processing

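Nos2, Nos3, Ddah1 and Gucy1a2 kept their direction and call under every alternative, with every library left out in turn. The value of Gucy1a2 shrank from -1.58 to -0.35 (adjusted p = 0.0260) with limma on log2(FPKM + 1) and to -1.18 (adjusted p = 0.0245) on log2(FPKM + 0.1), scales on which a pseudocount understates the change of low genes. Of the 10 genes, 2 rather than 4 were higher under DESeq2 and under limma with either pseudocount, and 2 to 4 when a library was left out. Prkg1 missed the threshold under DESeq2 (log2 fold change 0.43, adjusted p = 0.120), limma on log2(FPKM + 1) (0.16, adjusted p = 0.139) and limma on log2(FPKM + 0.1) (0.34, adjusted p = 0.171), and ranged from 0.27 to 0.59 when a library was left out. Pde5a missed it under DESeq2 (0.28, adjusted p = 0.148), scaling by library totals (0.24, adjusted p = 0.0591), log2(FPKM + 1) (0.15, adjusted p = 0.159) and log2(FPKM + 0.1) (0.23, adjusted p = 0.190), and ranged from 0.21 to 0.36. Pde3a missed it under DESeq2 (-0.43, adjusted p = 0.0831), log2(FPKM + 1) (-0.21, adjusted p = 0.0656) and log2(FPKM + 0.1) (-0.42, adjusted p = 0.0890), and ranged from -0.55 to -0.31. Leaving out a library moved Gucy1b1 between -0.05 (-0.0472, without siYAP/TAZ replicate 1) and 0.79, and Ddah2 between -0.13 and 0.02 (0.0230, without siCo replicate 1). Why the calls differ between tools was not tested. With a replicate block, 4440 genes were higher and 4428 lower, and 4 and 3 of the 10 genes. The block changed no call of the 10, and same-numbered libraries did not deviate together (r = 0.00774 across genes, which are not independent replicates). DESeq2 called 3295 genes higher and 3287 lower. Depth limits Nos1 and Gucy1a1, which held at most 14 counts in a library.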
